A study of Mus musculus with 10 samples.

Results

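This account covers the genes of the ionotropic and metabotropic glutamate receptors, the GABA-A and GABA-B receptors and the glycine receptors in a map of RNA methylation of the mouse cortex and hippocampus. Members were taken by gene symbol (Gria, Grin, Grik, Grm, Gabr, Gabbr, Glra and Glrb), which gave 50 of the 21896 protein-coding genes of the RefSeq annotation of GRCm38.p6. The symbol pattern also took Grin1os, a long noncoding RNA gene antisense to Grin1, which is not a receptor gene and was left out. The study compared wild-type (WT) mice with mice in which Nestin-Cre had removed Mettl14 (KO), all at postnatal day 5. There were 3 immunoprecipitated (IP) and 3 input libraries from WT, and 2 IP and 2 input libraries from KO. m6A-seq enriches RNA fragments that carry N6-methyladenosine (m6A) with an antibody, and stretches with more reads than in the input are called as peaks. METTL14 is a core subunit of the complex that writes most m6A on mRNA. Nestin-Cre acts in the neural lineage, so vessels, microglia and meninges keep the gene. The Cre status of the WT animals was not known here. A serum-free medium is named under growth conditions beside the tissue label, so a culture step cannot be told apart from direct use of tissue.

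Glutamate is the main excitatory transmitter of the forebrain. AMPA, NMDA and kainate receptors are tetrameric channels that it opens, and metabotropic receptors couple it to G proteins. GABA-A and glycine receptors are pentameric chloride channels, and the GABA-B receptor is an obligate pair of G protein coupled subunits. In the first postnatal weeks synapses form and the subunit makeup of these receptors changes. m6A on mRNA lies mainly near stop codons, in long internal exons and in 3′ untranslated regions, and affects how stable a transcript is and how well it is translated.

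The data were a single consensus peak list per genotype, with 15009 WT and 3673 KO peaks once overlapping entries had been merged. No value per library was used, so no difference between genotypes has a replicate error or a p-value, and each result below is a count or a position. The lists come from unequal numbers of libraries of unknown depth, and peaks can be missing from the shorter list for that reason as well. A listed peak does not measure how strongly its gene was expressed. In bulk RNA, fewer cells of a type, less RNA of the gene per cell and less methylation cannot be told apart when a peak is missing. The score of each peak is the authors' p-value or q-value. It is used here only as a rank, given as the percentage of the same list that had a larger, hence weaker, score. Mettl14 itself had 1 WT peak and 0 KO peaks. Of 6 neuron markers, 5 had a WT peak (Map2, Rbfox3, Stmn2, Syn1 and Tubb3), as did 4 of 4 astrocyte markers, 4 of 4 oligodendrocyte lineage markers and 3 of 4 microglia markers, and Snap25 had none. In the KO list these numbers were 5, 3, 0 and 1, and their part in the results below was not tested. Coordinates are those of GRCm38, counted from 1.

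At the base level, sequence was at hand only around annotated start sites. Among the members, 36 of 50 had a start window in the RefSeq table of GRCm38.p6, which runs from 250 bases before a start to 50 bases after it. A peak reached into this window in 2 genes, both in the WT list alone. They are shown for this reason, each from 90 bases before the start to 30 bases after it, 5′ to 3′ on the strand of the gene, with the bases under the WT peak in capitals. The Gria2 stretch is chr3:80802806-80802925 on the minus strand and the Grm7 stretch is chr6:110645508-110645627 on the plus strand.
Gria2: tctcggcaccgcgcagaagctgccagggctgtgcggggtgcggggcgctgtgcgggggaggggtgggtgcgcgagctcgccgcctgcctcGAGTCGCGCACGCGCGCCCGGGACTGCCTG
Grm7: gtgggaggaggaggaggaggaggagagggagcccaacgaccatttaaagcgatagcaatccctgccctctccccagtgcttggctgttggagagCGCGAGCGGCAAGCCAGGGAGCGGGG
Gria2 encodes the AMPA subunit that makes the channel nearly impermeable to calcium. Its 5′ peak, of 211 bases from 80802625 to 80802835 on chromosome 3, began exactly at this annotated start, 80802835, which lies inside the gene, whose outermost start is 80804227. The letters GGACT, the most frequent form of the m6A consensus, occurred once in the 50 bases of the window under the peak, from base 21 after the start, and the rest of the peak was not searched. Grm7 encodes a presynaptic glutamate receptor. Its 5′ peak ran from 110645602 to 110645751 on chromosome 6, against a start at 110645598, and covered 46 of the 50 transcribed bases in the window. The Grm7 window held neither these letters nor the 2 other forms searched, GGACA and the form ending in CC (GGACC), on either strand. Over all 32851 RefSeq start windows of the same length, GGACT was found on the strand of the gene in 26.1% and on either strand in 45.5%. The form GGACA was found on either strand in 47.9% of windows, and the form GGACC in 45.5%. All these shares are for whole windows, of which 250 bases lie before the start. No share is given here for the 50 bases after it, where the Gria2 match lay. The Gria2 window also held GGACC once on the strand of the gene and GGACA once on the other strand. A match is a run of letters and not a methylated site.

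Receptor genes carried a WT peak in 29 of 50 members (58.0%, Wilson 95% interval 44.2 to 70.6), against 34.3% of all protein-coding genes. In the KO list 14 of 50 had a peak (28.0%, interval 17.5 to 41.7), against 12.2%. Intervals cover counting error over genes only and no test of these differences was run. Both lists together named 33 members and 17 had no peak in either. Long genes had peaks more often, and receptor genes are long, with a median span of 130 kb including introns against 17.1 kb for all protein-coding genes. Among members spanning at least 100 kb, 20 of 26 had a WT peak and 11 had a KO peak (76.9% and 42.3%), against 57.7% and 26.4% of all 2428 protein-coding genes of that span. Among the 24 shorter members, 9 had a WT peak and 3 had a KO peak (37.5% and 12.5%), against 31.4% and 10.5%.

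Glutamate receptor genes held most of the peaks. A WT peak was listed for 18 of 24 glutamate receptor genes, with 55 peaks over 16062 exonic bases. Of the 26 GABA and glycine receptor genes, 11 had a WT peak (42.3%, interval 25.5 to 61.1), with 14 peaks over 3814 exonic bases. The share of all protein-coding genes was 34.3%, within the interval for the GABA and glycine receptor genes. Each glutamate receptor gene with a peak had 3.06 WT peaks on average and each GABA receptor gene 1.27, against 1.96 over all protein-coding genes with one. Transcript lengths were not used here, so these densities are per gene and not per base of RNA. The 2 groups were not matched for gene span, and its part in their contrast was not tested. In the KO list, glutamate receptor genes had 15 peaks in 10 genes and GABA receptor genes 5 peaks in 4 genes. These are 41.7% of the glutamate and 15.4% of the GABA and glycine receptor genes, against 12.2% of all protein-coding genes.

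**Figure D1:**
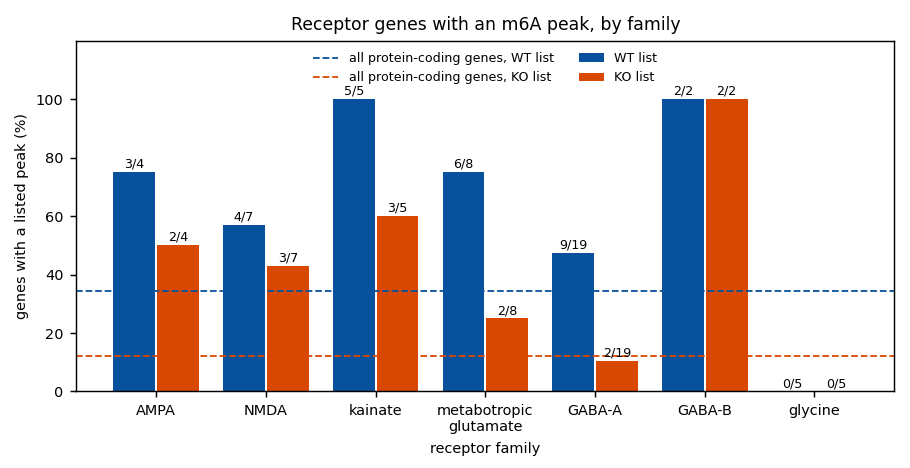
Share of genes with a listed peak (vertical axis, percent) in each receptor family (horizontal axis) for the WT list (blue) and the KO list (orange), with numbers of genes above the bars and dashed lines for all protein-coding genes (34.3% and 12.2%). The 5 kainate and both GABA-B genes have a WT peak, while the 5 glycine receptor genes have none in either list.

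Among AMPA receptor genes, 3 of 4 had WT peaks and 2 had KO peaks. Gria1, for the subunit GluA1, had 7 WT peaks over 1532 exonic bases, a number that 1.32% of all protein-coding genes with a WT peak reached. The first lay at the gene start and 5 lay within 3 kb of the gene end, where the last, with its middle 434 bases from the end, was among the peaks with a listed score of 0. Of these 7 peaks, the one at the gene start (chromosome 11, 57011648 to 57011977) was overlapped by a KO peak (57011827 to 57012007), which shared 151 bases with it. The other Gria1 KO peak, from 57328003 to 57328122, fell between WT peaks, 209 bases after one and 59 bases before the next, and overlapped neither. Gria2 had 4 WT peaks over 724 exonic bases and no KO peak. Besides the peak at the start shown above, 3 peaks lay within a stretch of 781 bases, and their scores were stronger than at least 92.4% of the WT list. Gria4 had 1 WT peak of 599 bases and no KO peak. Gria3, the X-linked AMPA subunit gene, had no WT peak and 2 KO peaks, at 41400884 to 41401004 and 41401376 to 41401436 on chromosome X. Their scores were stronger than only 30.1% and 49.7% of the KO list. The middles of these 2 peaks lay at most 587 bases after the gene start, the same end of the gene at which the overlapping Gria1 peaks were found.

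Among NMDA receptor genes, 4 of 7 had WT peaks and 3 had KO peaks. Grin2b, for the GluN2B subunit that prevails in the young forebrain, had 6 WT peaks over 2853 exonic bases, the largest exonic length among the members. Its widest, of 1320 bases, was also the widest of the 69 receptor peaks. A KO peak of 121 bases (chromosome 6, 135733537 to 135733657) lay inside the strongest Grin2b peak (135733448 to 135733747). The remaining 2 Grin2b KO peaks, at 135727604 to 135727724 and 135717746 to 135717806, lay 2157 and 1647 bases from the nearest WT peak of the gene. Grin2a, for the GluN2A subunit that gains weight as synapses mature, had no WT peak and 1 KO peak of 121 bases (chromosome 16, 9571646 to 9571766). Grin2a and Grin2b thus differed in the WT list, although expression at this age was not measured here. Grin3a, for a glycine-binding subunit that lowers calcium entry, had 4 WT peaks, of which 2 lay within 1000 bases of the gene start. The first of these (chromosome 4, 49845440 to 49845769) was overlapped by a KO peak of 91 bases (49845649 to 49845739) whose score was stronger than only 0.545% of the KO list. Grin1, for the subunit that every NMDA receptor needs, had 2 WT peaks over 331 exonic bases and no KO peak. The stronger, from 25291836 to 25292105 on chromosome 2, had its middle 793 bases from the gene end. Both Grin1 peaks lay over Grin1os. Grin2d had 2 WT peaks over 480 exonic bases and no KO peak, and Grin2c and Grin3b had none in either list.

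All 5 kainate receptor genes had a WT peak and 3 had a KO peak. Grik3 had 6 WT peaks over 1772 exonic bases, all in a stretch of 5686 bases that ended near the gene end. A KO peak (chromosome 4, 125710134 to 125710313) shared 150 of its 180 bases with the third of them (125709894 to 125710283). Grik4, for one of the high-affinity subunits, had 1 WT peak of 597 bases (chromosome 9, 42520472 to 42521068) and 2 KO peaks over it. Of these, the one from 42520829 to 42520919 lay wholly inside and the one from 42520412 to 42520531 crossed its border. Grik5, for the other high-affinity subunit, had 1 WT peak (chromosome 7, 25009971 to 25010360) with a listed score of 0, its middle 316 bases from the gene end, and no KO peak. Grik2, for a main kainate receptor subunit, had 1 peak in each list, 7438 (WT) and 2904 (KO) bases from the gene end and 4308 bases apart, with the KO peak from 49096464 to 49096704 on chromosome 10. Grik1 had 2 WT peaks over 300 exonic bases, at either end of the gene, and no KO peak.

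**Figure D2:**
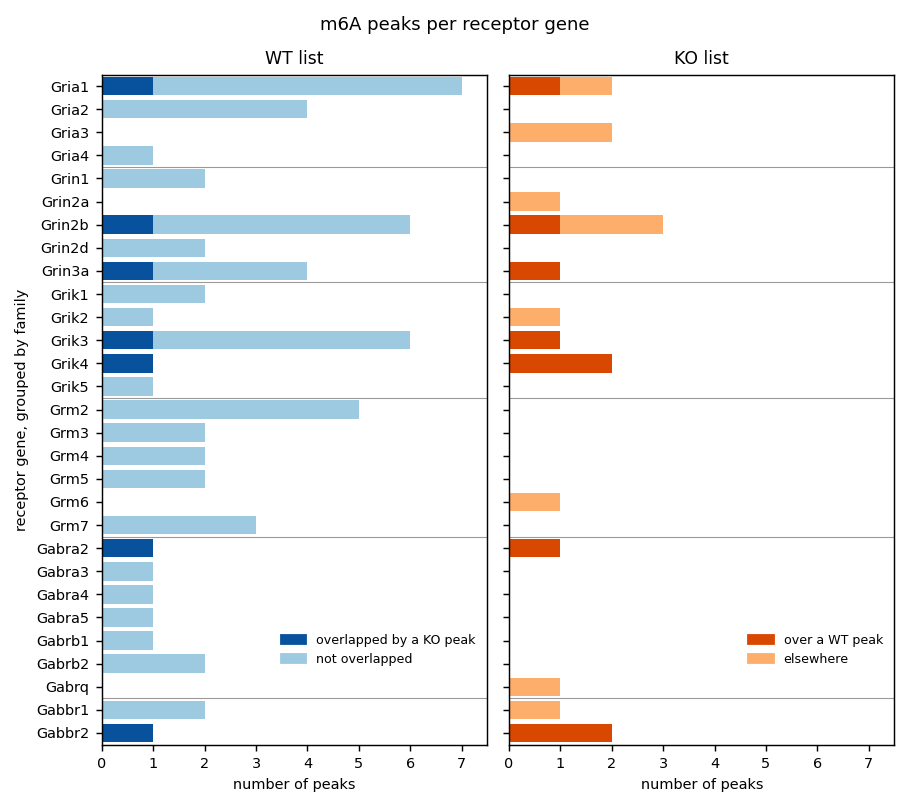
Number of peaks (horizontal axes) in the WT list (left) and the KO list (right) for 29 of the 33 receptor genes with a peak (vertical axis, families separated by lines), with dark bars for peaks that overlap a peak of the other list. Gria1 has 7 WT peaks, Grin2b and Grik3 have 6 each, and no gene has more than 3 KO peaks.

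Metabotropic glutamate receptor genes had 18 WT peaks in 6 of 8 genes, and 2 KO peaks in 2 genes. Grm5, for a receptor coupled to phospholipase C, had 2 WT peaks over 1139 exonic bases, with one of 749 bases and a listed score of 0, and no KO peak. The group II genes, for receptors that lower cyclic AMP, had 7 WT peaks and no KO peak. Grm2 had 5 of these over 1441 exonic bases, spread from 16.9% to 74.9% of the length of a gene that spans 11576 bases, and Grm3 had 2. In group III, Grm7 had 3 WT peaks over 480 exonic bases, with 2 in the first 1000 bases of the gene, and Grm4 had 2 over 897. Grm8, which spans 860026 bases, had no peak in either list. Grm6, for the receptor of retinal ON bipolar cells, had no WT peak and 1 KO peak of 120 bases (chromosome 11, 50866089 to 50866208), which ended on the last annotated base of the gene. The KO peaks of Grm6 and Grin2a had the same listed score, 3.2e-13, which 70 KO entries share.

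GABA-A receptor genes had few peaks each. A WT peak was listed for 9 of 19 (47.4%), against 34.3% of all protein-coding genes. Of these, 7 had 1 peak and 2 had 2 peaks, while 49.8% of all protein-coding genes with a WT peak had exactly 1. A KO peak was listed for 2 of 19 (10.5%), near the 12.2% of all protein-coding genes. Gabrb2, for a beta subunit of the most common adult receptor type, had 2 WT peaks over 361 exonic bases, the stronger of which ranked above 84.9% of the list. Gabra2, Gabra3, Gabra4, Gabra5 and Gabrb1 had 1 each, and that of Gabra5 lay over another annotated gene. The 5 single peaks ranged from 91 exonic bases in Gabra3 to 420 in Gabra5. Only Gabra2 had peaks in both lists. Its WT peak (chromosome 5, 70960845 to 70961025) and its KO peak (70960755 to 70960995) shared 151 bases, and the KO peak was the wider, with 241 against 181 bases. It was also the highest ranked receptor peak of the KO list, stronger than 86.1%. Gabrq, for the theta subunit, had no WT peak and 1 KO peak of 60 bases (chromosome X, 72841048 to 72841107). Gabra6, Gabrd, Gabre, Gabrg1, Gabrg3, Gabrp and the rho subunit genes Gabrr1, Gabrr2 and Gabrr3 had none.

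GABA-A subunit genes lie in clusters, which allows neighbours to be set side by side. In the chromosome 5 cluster (70751047 to 72149572) Gabra2, Gabra4 and Gabrb1 had 1 WT peak each and Gabrg1 had none. Gabra5 on chromosome 7 had 1, and its neighbour Gabrg3, which spans 670753 bases, had none. On chromosome X (72256926 to 72842607) Gabra3 had 1, of 91 bases, while Gabre and Gabrq had none. The chromosome 5 and X clusters thus held members with and without a WT peak, and the only KO peaks in these 2 clusters were those of Gabra2 and Gabrq. Of the neighbours Gabrr1 and Gabrr2 on chromosome 4, neither had a peak.

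Both GABA-B receptor genes had peaks in both lists. Gabbr2, for the subunit that activates the G protein, had 1 WT peak of 1080 exonic bases in 3 blocks (chromosome 4, 46664117 to 46674575) with a listed score of 0. Its 2 KO peaks, of 151 bases (46664357 to 46664507) and 240 bases (46674486 to 46677618), covered 241 bases of it. Gabbr1, for the subunit that binds GABA, had 2 WT peaks. The peak at the gene end, from 37074126 to 37074305 on chromosome 17, ended on the last annotated base. Its KO peak, of 61 bases from 37051079 to 37051139, lay 4843 bases from the nearest WT peak. The 5 glycine receptor genes, Glra1, Glra2, Glra3, Glra4 and Glrb, had no peak in either list (0 of 5, Wilson upper limit 43.4%). Glrb, whose subunit anchors the receptor through gephyrin, lies beside Gria2, which had 4.

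Of the 69 WT peaks of receptor genes, 8 shared at least 1 exonic base with a KO peak on their strand (11.6%, Wilson 95% interval 5.99 to 21.2). Intervals for shares of peaks, here and below, treat peaks as independent. The 69 peaks come from 29 genes, with 7 in Gria1 alone, so these intervals may be too narrow. The share over all WT peaks was 12.9%, so the members were near the background. Members spanning at least 100 kb held all 8, among 51 WT peaks (15.7%), against 13.5% for all protein-coding genes of that span. In shorter members 0 of 18 WT peaks were overlapped (Wilson upper limit 17.6%), against 12.8%, which lies below that limit. The 8 peaks lay in 8 genes, among them Gria1, Grin2b, Grin3a, Grik3, Grik4, Gabra2 and Gabbr2, which is 27.6% of the 29 members with a WT peak, against 20.8% of all protein-coding genes with one. The order of these shares turned with the stronger 50% of each list, where 4 of 24 members (16.7%) stood against 19.4%. It also turned with the WT list cut to the length of the KO list (22.2% against 34.5%) and where at least 50% of the WT peak had to be covered (6.9% against 11.4%). A KO peak anywhere in the gene was listed for 10 of these 29, against 27.2%. The overlaps were mostly partial. At least 50% of the WT peak was covered in 2 cases, with 83.4% in Gabra2, and in the other 6 between 22.3% and 45.8%. In none of the 8 did both borders match. The summed exonic length of receptor peaks was 19876 bases in the WT list and 2744 bases in the KO list.

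**Figure D3:**
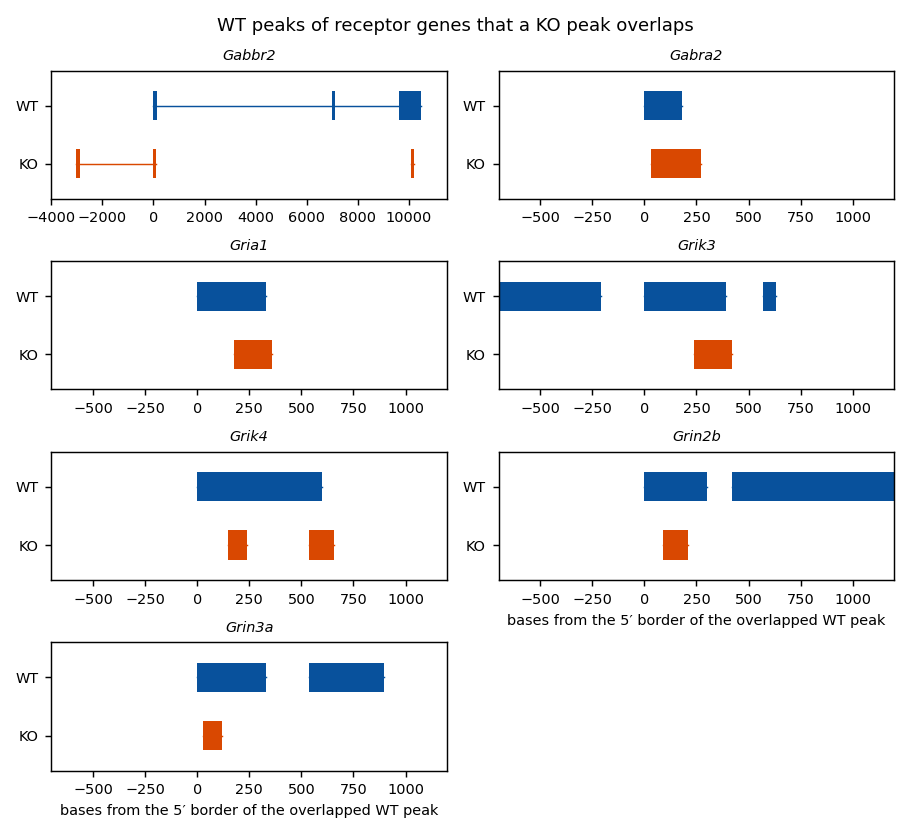
Exonic blocks of WT peaks (blue) and KO peaks (orange) around 7 of the 8 receptor peaks found in both lists, by distance in bases from the 5′ border of the overlapped WT peak (horizontal axes; neighbouring peaks are drawn too and may run past an edge; the Gabbr2 panel has a wider scale, and thin lines join blocks of a peak). The KO peak covers 83.4% of the WT peak in Gabra2 and at most 45.8% in the other 6.

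Receptor genes had 20 KO peaks, of which 10 lay over a WT peak (50%, interval 29.9 to 70.1), against 57.1% of all KO peaks, and 4 of them lay wholly inside it. The other 10 divided evenly. In genes with WT peaks elsewhere there were 5, in Gria1, Grin2b, Grik2 and Gabbr1. In the 4 genes without a WT peak, Gria3, Grin2a, Grm6 and Gabrq, there were 5. These are 4 of 50 members (8.0%), while 2.92% of all protein-coding genes had a KO peak and no WT peak. Of the genes with a KO peak, 4 of 14 members and 640 of 2681 protein-coding genes had no WT peak. The 20 KO peaks were ranked low in their list, with a median of 39.7% of KO peaks weaker, and narrow. They covered 121 exonic bases at the median, and all KO peaks covered 151. A score shared with at least 50 entries of the KO list was found for 3 of the 20, in Grin2a, Grm6 and Grik4.

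WT peaks of receptor genes had ordinary widths and a rank somewhat above the middle of the list. They covered 211 exonic bases at the median, with quartiles of 150 and 330, and all WT peaks covered 208, with quartiles of 121 and 328. The median receptor peak was stronger than 65.1% of the list (quartiles 30.8% and 84.1%). By family the median rank was lowest for metabotropic glutamate receptors, at 44.5%, and 74.2% for AMPA, 64.9% for NMDA, 68.8% for kainate and 65.7% for GABA-A receptors. A listed score of 0 was found for 6 of the 69 receptor peaks, in Gria1, Gria2 (2 peaks), Grik5, Grm5 and Gabbr2. Among these only the Gabbr2 peak was overlapped in the KO list. Over the whole WT list, 764 of 15009 peaks had a score of 0, and 391 of the 764 were overlapped. The 8 overlapped peaks had a median width of 330 bases and a median rank of 72.4%, and the 61 others 210 bases and 59.5%. The whole WT list went the same way, with 359 bases and 78.3% for overlapped peaks and 181 bases and 46.1% for the others. A wider peak offers more bases to overlap, and the part of width in these differences was not tested.

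**Figure D4:**
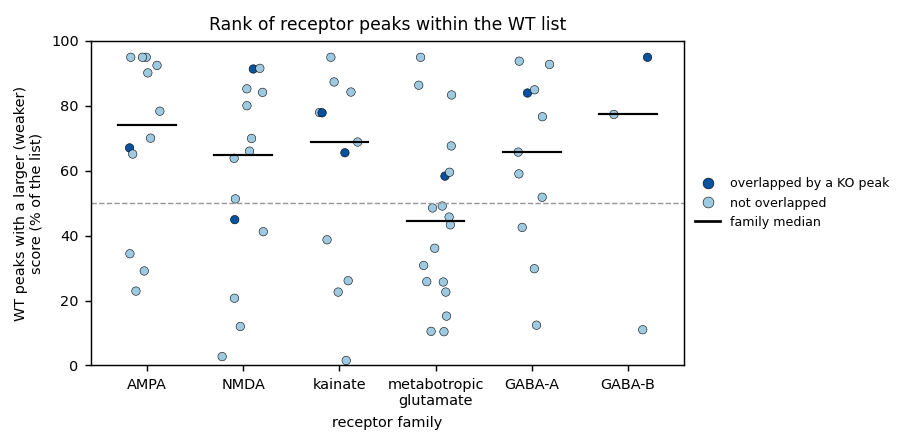
Rank of each of the 69 receptor peaks within the WT list (vertical axis, percent of WT peaks with a weaker score) by family (horizontal axis, points spread sideways for clarity), with family medians as lines and peaks overlapped in the KO list in dark blue. The dashed line marks the middle of the list, and the metabotropic median of 44.5% lies below it.

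Receptor peaks lay near the 3′ end of their genes when measured along the gene with introns included. The middle of 49 of 69 WT peaks (71.0%) was in the last 10% of the gene, against 38.9% of all WT peaks. For KO peaks of receptor genes it was 15 of 20 (75%), against 35.9%. Exon positions within genes were not used, and the part of gene span in this difference was not tested. Within a fixed 1000 bases of the annotated gene end lay 7 of 69 WT peaks (10.1%, Wilson 95% interval 5.00 to 19.5), against 16.5% of all WT peaks. Within 5000 bases lay 38 (55.1%), against 57.2%. The first 10% of the gene held 9 of 69 WT peaks (13.0%), near the 12.4% of all WT peaks. These 9 lay in Gria1, Gria2, Grin3a, Grik1, Grm7, Gabra3 and Gabbr1. The same part held 4 of 20 KO peaks, in Gria1, Gria3 and Grin3a, against 11.3% of all KO peaks. The KO difference was not tested. Of the 8 overlapped peaks, 6 lay in the last 10% of the gene and 2, those of Gria1 and Grin3a, in the first. Peaks in several exonic blocks made up 10.1% of the receptor WT peaks (7 of 69), against 23.5% of all WT peaks.

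**Figure D5:**
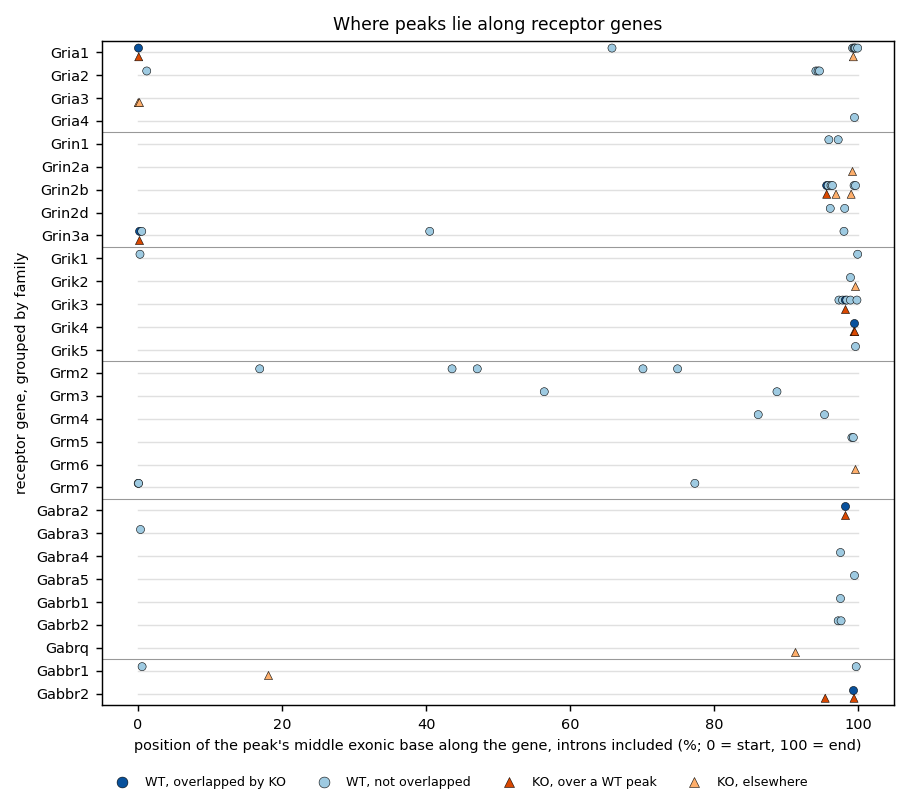
Position of each peak along its gene in percent of the annotated span, introns included (horizontal axis), for WT peaks (circles) and KO peaks (triangles) of 29 of the 33 receptor genes with a peak (vertical axis, families separated by lines); dark symbols overlap a peak of the other list. Of all 69 WT peaks, 71.0% lie in the last 10% of the gene, and the KO peaks of Gria3 lie at its start.

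Some receptor peaks share their position with another annotated gene. This held for 6 WT peaks and 1 KO peak, among them both Grin1 peaks (Grin1os), the first 2 WT peaks and the first KO peak of Grin2b (Gm14329) and the Gabra5 peak (Gm9962). The library kit keeps strand information per the labels. It was not known here whether reads were split by strand before peak calling, so which gene these reads came from is uncertain. Without the peaks over another gene, 26 members had a WT peak, a count made after seeing the data.

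Genes that act with the receptors had WT peaks in 24 of 28 accessory and anchoring genes (85.7%), and KO peaks in 9 (32.1%). The shares of all protein-coding genes were 34.3% and 12.2%, and no test of these differences was run. Of the 51 WT peaks of the accessory and anchoring genes, 9 were overlapped by a KO peak (17.6%, Wilson interval 9.57 to 30.3). The share over all protein-coding genes was 12.9%, within that interval. Lhfpl4, for a protein that carries GABA-A receptors to synapses, had 5 WT peaks, of which 1 was overlapped. Cacng2, for the AMPA receptor partner stargazin, had 3 WT and 3 KO peaks with 2 WT peaks overlapped. Kctd16, for a GABA-B receptor partner, had 3 and 3 with 1 overlapped. Cacng4 (3 WT peaks), the kainate receptor partner Neto1 (2), and Grid1, Homer2 and Shisa7 (1 each) had 1 KO peak each, over a WT peak. Nsf had 1 peak in each list, not overlapping. Homer1, for a scaffold of group I receptors, had 4 WT peaks, and Shisa9 and Kctd12 had 3 each, with no KO peak. Genes of transmitter synthesis and transport had WT peaks in 10 of 16 and KO peaks in 4. The vesicular glutamate transporter gene Slc17a7 and the astrocytic glutamate transporter gene Slc1a3 had 2 WT peaks each, 1 of them overlapped, and Slc1a2 had 2 WT peaks and a KO peak elsewhere. Slc32a1, for the vesicular transporter of GABA and glycine, had 3 WT peaks, Glul had 2 and Slc1a1 had 1, with no KO peak.

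Receptors for acetylcholine, serotonin, dopamine, noradrenaline and ATP were counted in the same way, with no test of the difference. A WT peak was listed for 21 of 56 such genes (37.5%) and a KO peak for 6 (10.7%), close to the shares of all protein-coding genes. They held 42 WT peaks, of which 1 was overlapped by a KO peak (2.38%, Wilson interval 0.422 to 12.3), in the muscarinic receptor gene Chrm4. The share over all WT peaks was 12.9%. In the glutamate, GABA and glycine receptor genes it was 8 of 69 (11.6%), near that background. Chrm1, Chrm3 and Chrnb2 had 3 WT peaks each and a KO peak elsewhere in the gene, and Adra2b had a KO peak alone. Chrna4 had 4 WT peaks, and Drd1 and Htr1a had 3 each, with no KO peak.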

How the data were processed

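Per the labels' protocols, RNA was extracted with Trizol, an anti-m6A antibody precipitated the IP samples, and the library kit was stranded. STAR, with no version, and the build GRCm38 are named per the submitters' processing notes. Not given in the sources used here are the peak caller, its thresholds and how libraries were combined. The authors deposited 1 peak list per genotype, whose score was read as a p-value or q-value, since all scores lay between 0 and 0.00015. Depth per library is unknown here.

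Overlapping entries on the same strand were merged by exonic block (15091 to 15009 in WT, 3733 to 3673 in KO). The listed symbol gave the gene, and 99.9% of WT and 99.8% of KO names were in the RefSeq table. Overlap meant at least 1 shared exonic base. The middle exonic base gave a peak's position. Wilson 95% intervals came from SciPy 1.17.1 in Python 3.11.15. Overlap code was tested on simulated intervals. Members and lists were chosen with earlier results of these data known. Named were every member with a KO peak and, of those without, the 10 with most WT peaks, with values, the others with their number of peaks, except that some genes are counted in their family but not reported here by name. The same rule held in the related lists, with up to 3 genes without a KO peak. Alternatives changed the merging, gene assignment, overlap, strand, list length and windows.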

Additional observations from a re-analysis of the deposited data

How the results depend on the processing

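No paired analysis was possible because each genotype has 1 consensus list without library values, so no replicate could be left out either. Motif counts in peak sequences, which need a genome, were not run. Of 40 comparisons of a result with an alternative setting, 28 kept the value within 1.5 times the count, within its interval or within its quartiles. Some of the 28 could not change, such as the members with a KO peak when only the WT list was shortened, so the tally is no measure of robustness. Leaving entries unmerged, taking genes from position, ignoring strand and using whole spans left the members with an overlapped peak at 8. Asking for 50% of the WT peak, or of both peaks, to be shared left 2 members and 2.90% of WT peaks, against 6.54% and 6.28% of the WT peaks of all protein-coding genes. With the stronger 50% of each list, 5 members had a KO peak (10%, against 6.66% of all protein-coding genes), 4 had an overlapped peak (16.7% of those with a WT peak, against 19.4%) and 0 had KO peaks alone (against 1.68%). With as many of the strongest WT peaks as there are KO peaks, 18 members had a WT peak (36.0%, against 12.1%) and 4 had an overlapped peak (22.2% of those, against 34.5%). These background shares were computed after the data had been seen. The share near the gene end was 55.1% with a window of 5000 bases. With 50% of both peaks shared, 4 accessory genes and 0 other transmitter receptors kept an overlapped peak, in place of 8 and 1. In settings added after seeing the data, 26 members had a WT peak without peaks over another gene, and 12 had a KO peak without scores shared by 50 or more entries. Leaving out the rho, epsilon, pi and theta subunit genes and Glra4 gave 13 members with a KO peak. It could not change the 29 with a WT peak, since none of those left out had one.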
